A study of Mus musculus with 4 samples.

Results

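Tumour-initiating stem-like cells (TICs) of mouse liver, cultured with vehicle, are described here across genes, as 1 of 4 sequenced libraries. The library was chosen by its label, and every value below is from that library's own column of 23359 gene rows. TICs were isolated from liver tumours of C57BL/6 mice and grown in DMEM/F12 with 10% fetal bovine serum, glutamine, non-essential amino acids (NEAA), mouse EGF, nucleosides, dexamethasone, penicillin and streptomycin. The other cultures of the study received all-trans retinoic acid (ATRA) at 5 µg/ml, suberoylanilide hydroxamic acid (SAHA) at 0.5 µg/ml, or both, for 16 hours, and are not compared here. Total RNA was depleted of ribosomal RNA and sequenced on an Illumina HiSeq2500. The labels do not say how many mice the culture came from, whether it is 1 clone, which surface marker was used for isolation, or how long vehicle was applied. With 1 library there is no replicate error, so levels are described with no test.

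Tumour-initiating cells are defined by what they do: they seed a tumour when transplanted and give rise to its other cells. Hepatocytes, the main cells of the liver, secrete albumin, clotting factors and apolipoproteins and are linked by E-cadherin. Bile duct cells make keratins 7 and 19, and mesenchymal cells make vimentin, matrix proteins and other cadherins. Which of these programmes a culture transcribes can be read from the level of each programme's genes.

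Levels are in FPKM, a fragment count divided by transcript length and by the mapped fragments of the library, so genes of different length can be compared. A gene was counted as present at 1 FPKM or more. Of 20382 coding genes, 8206 (40.3%) were present, and the median coding gene stood at 0.351 FPKM. Counts of present genes in the lists and families below are to be read beside that share. From the smallest repeated step in the values, a transcript of 1 kilobase at 1 FPKM corresponded to roughly 99.1 fragments, and the smallest step, read as 1 fragment, was 0.0101 FPKM times kilobases. Values near 0.01 FPKM therefore stand for few fragments. No counting interval is given, because read counts were not used.

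**Figure D1:**
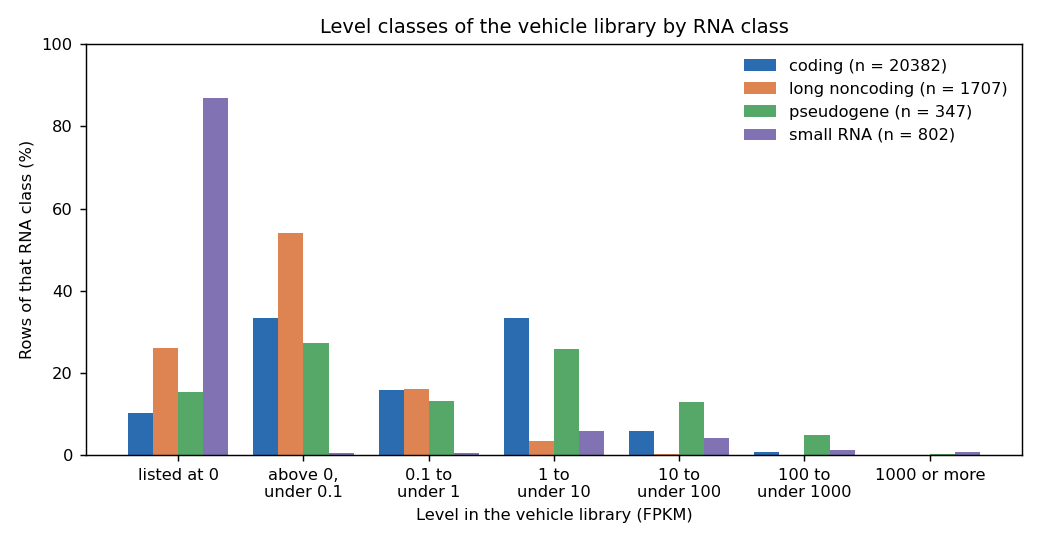
Share of rows (percent, vertical axis) in each level class (FPKM, horizontal axis) for coding, long noncoding, pseudogene and small RNA rows of the vehicle library. Coding rows split between those above 0 but under 0.1 FPKM (33.5%) and those from 1 to under 10 FPKM (33.5%), whereas 696 of 802 small RNA rows were listed at 0.

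Coding genes fell into 2 broad groups. Under 0.1 FPKM stood 8931 coding genes (43.8%), of which 2097 were listed at 0, and 6837 lay from 1 to under 10 FPKM. Only 3245 genes lay between these groups, from 0.1 to under 1 FPKM. Above them, 1369 genes (6.72%) reached 10 FPKM, 181 (0.888%) reached 100 FPKM and 20 reached 1000 FPKM. Sensory receptor genes, which are used in nasal tissue, marked the low end. Of 1085 olfactory receptor rows, 1 was present (Olfr122 at 1.10 FPKM), and 0 of 317 vomeronasal receptor rows were.

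The 5 genes taken as marks of these cells, a choice made with their values known, were all present. Vim, the intermediate filament vimentin, was at 562 FPKM and ranked 43 among coding genes (mm10 chromosome 2, 13573927 to 13582826, plus strand). S100a4, a calcium-binding protein of motile mesenchymal cells, was at 557 FPKM and ranked 44. Spp1, the secreted matrix protein osteopontin, was at 336 FPKM. Krt18, a keratin of simple epithelia, was at 95.3 FPKM (chromosome 15, 102028180 to 102032027, plus strand). Cd44, the hyaluronan receptor, was at 61.8 FPKM. The set thus holds a mesenchymal filament and an epithelial keratin side by side, in a library from many cells in which fewer cells of a type and less RNA per cell cannot be told apart.

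Mesenchymal genes ranged from among the most abundant in the library to listed at 0. Of 40 members, 18 were present (45.0%), a share near the 40.3% of all coding genes, and their median was 0.399 FPKM beside 0.351 FPKM over all coding genes. Below Vim and S100a4 came Serpinh1, the collagen chaperone HSP47, at 80.3 FPKM, and Sparc, a matrix-associated glycoprotein, at 33.4 FPKM. Fn1, fibronectin, was at 18.9 FPKM, and Acta2, smooth muscle actin, at 15.9 FPKM. The transcription factors linked to epithelial-mesenchymal transition were at lower levels. Twist1 was at 7.62 FPKM, Twist2 at 5.66 FPKM and Snai1 at 1.31 FPKM, while Zeb1 (2.16 FPKM) and Zeb2 (1.86 FPKM) share their loci with other rows. Snai2 was at 0.371 FPKM, below the level counted as present. Of these factors, all but Twist1 were named after their values were seen. The same list also held genes that were nearly silent, named after their values were seen. Col1a1, Col1a2 and Col3a1, the fibrillar collagens that fibroblasts secrete in bulk, were at 0.0207, 0.00623 and 0.0465 FPKM. Cdh2, N-cadherin, was at 0.0259 FPKM and Thy1, a fibroblast surface antigen, at 0.0157 FPKM. Tagln and Cnn1 of the same list, both with shared loci, were at 0.144 and 0.0350 FPKM, also named after their values were seen. Actin genes are close in sequence, so reads shared with other actins could enter the Acta2 level. Vim, Acta2 and Twist RNA thus stood beside very low fibrillar collagen type I and III RNA and low Tagln and Cnn1 RNA.

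Epithelial genes were present as a subset. Of 42 members 11 were present (26.2%), with a median of 0.0411 FPKM. Below Krt18 came Cldn6, a claudin of embryonic epithelia, at 43.8 FPKM. The junction scaffold Tjp1 was at 7.11 FPKM, Lad1, a basement membrane anchoring filament protein, at 4.35 FPKM, and Jup, plakoglobin, at 3.28 FPKM. Krt8, the type II keratin that normally pairs with keratin 18, was at 1.11 FPKM, far below its partner. Cdh1, E-cadherin, was at 0.0104 FPKM and Epcam at 0.0406 FPKM. The epithelial splicing regulators Esrp1 (0.00438 FPKM) and Esrp2 (0.0195 FPKM) and the epithelial factor Grhl2 (0.0077 FPKM) were also near the smallest step, named after their values were seen. Within the keratin family, 5 of 50 genes were present, and Krt18 alone was above 10 FPKM. Krt80 was at 5.17 FPKM with a shared locus, Krt7 at 2.99 FPKM and Krt79 at 1.69 FPKM.

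E-cadherin and N-cadherin were thus both low, and few other cadherins were present. Of 23 cadherin genes 3 were present: Cdh13, the lipid-anchored T-cadherin, at 6.63 FPKM, Cdh11, a cadherin of mesenchyme and bone, at 4.98 FPKM, and Cdh26 at 1.19 FPKM.

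**Figure D2:**
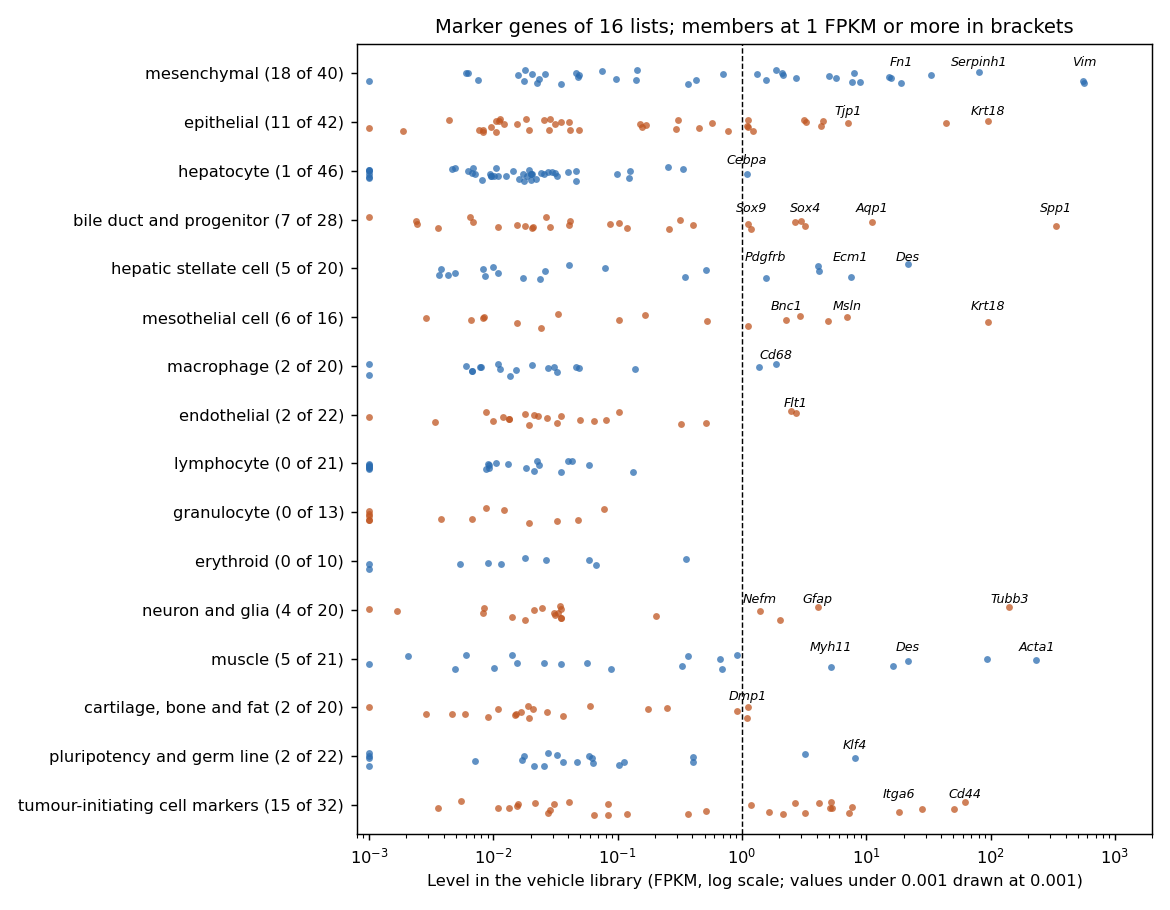
Level of every member (FPKM, log scale; 1 point a gene) of 16 marker lists in the vehicle library, with the number present at 1 FPKM (dashed line) in brackets and some of the highest members named. Mesenchymal and tumour-initiating cell marker lists had 18 of 40 and 15 of 32 members to the right of the line, and the hepatocyte list 1 of 46.

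Hepatocyte genes were almost entirely low. Of 46 members 1 was present, Cebpa, a transcription factor that liver shares with fat, at 1.09 FPKM. Under 0.1 FPKM stood 41, and the median was 0.0174 FPKM. Alb was at 0.0108 FPKM, Afp, the fetal serum protein, at 0.0983 FPKM and Hnf4a at 0.0186 FPKM. The highest of the other members was Cyp1a2 at 0.336 FPKM, followed by Apoa2 at 0.255 FPKM. Among 90 cytochrome P450 genes, the family of liver detoxification, 4 were present. These were Cyp20a1 at 6.59 FPKM and the Cyp4f genes Cyp4f16 (1.71 FPKM), Cyp4f13 (1.20 FPKM) and Cyp4f17 (1.05 FPKM). The tissue label of liver thus gives the origin of the cells, and the hepatocyte markers that would define that tissue were near 0.

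Bile duct and progenitor genes were present in part, at 7 of 28 (25%). Spp1 led, and Aqp1, a water channel of duct cells and many endothelia, was at 11 FPKM. Sox4 was at 3.24 FPKM, Krt7 at 2.99 FPKM, and the anion exchanger Slc4a2 at 2.66 FPKM. Sox9, a factor of ducts and progenitors, was at 1.19 FPKM and Dlk1, a fetal liver surface protein, at 1.11 FPKM. Krt19 was at 0.102 FPKM and Prom1, CD133, at 0.00357 FPKM, so the duct keratin pair was represented by Krt7 without comparable Krt19.

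Markers of the remaining cells of the liver and abdomen gave no complete signature. For hepatic stellate cells 5 of 20 were present: Des, desmin, at 21.4 FPKM, Ecm1 at 7.51 FPKM, Hhip at 4.14 FPKM, Gfap, glial fibrillary acidic protein, at 4.06 FPKM, and Pdgfrb at 1.55 FPKM. For mesothelial cells, which line the abdominal organs, 6 of 16 were present (37.5%, near the 40.3% of all coding genes). Msln, mesothelin, was at 7.0 FPKM, Podxl at 4.89 FPKM, Gata6 at 2.91 FPKM and Bnc1 at 2.28 FPKM, in addition to Krt18 and Krt8, but Wt1, a factor that defines mesothelium, was at 0.166 FPKM. Both lists share members with others, and no cell type is named from them.

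Most members of each blood and vessel list were under 0.1 FPKM. Macrophage genes summed to 3.71 FPKM over 20 rows, 2 of which were present (Cd68 at 1.89 FPKM and Cd14, the lipopolysaccharide co-receptor, at 1.38 FPKM), and 2 were listed at 0. Endothelial genes summed to 6.57 FPKM over 22 rows, with Flt1 at 2.70 FPKM and Egfl7 at 2.5 FPKM present, and the Egfl7 locus is shared with another row. Lymphocyte genes summed to 0.457 FPKM over 21 rows, granulocyte genes to 0.208 FPKM over 13 and erythroid genes to 0.553 FPKM over 10, with 0 present in each. Ptprc, the pan-leukocyte antigen CD45, was at 0.00603 FPKM and Pecam1, of endothelium, at 0.00867 FPKM. Ptprc and Pecam1 were thus near 0, while Vim, Krt18 and Cd44 were not.

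Genes usually tied to muscle and nerve were present one by one, not as programmes. Acta1, skeletal actin, was at 233 FPKM, Actc1, cardiac actin, at 93.3 FPKM, and Tnnt2, cardiac troponin T, at 16.3 FPKM. Myh11, smooth muscle myosin, was at 5.18 FPKM, and Myod1, the skeletal muscle determination factor, was at 0.00601 FPKM, a gene named after its value was seen. In all, 5 of 21 muscle genes were present. In the nerve list 4 of 20 were present: Tubb3, a beta-tubulin of neurons, at 141 FPKM, Gfap, Stmn2 at 2.02 FPKM and Nefm at 1.40 FPKM. All 6 actin genes and all 15 tubulin genes were present, 10 of the tubulins at 100 FPKM or more. These genes are close in sequence, and reads shared between copies could be split between them in a way that the table does not show.

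Stem cell markers divided. Of 32 tumour-initiating cell markers, 15 were present (46.9%, near the 40.3% of all coding genes). Cd34, a surface sialomucin of progenitors, was at 50.8 FPKM but shares its locus with Gm16897. Ly6a, Sca-1 of mouse stem cells, was at 28.2 FPKM, one of a group of near-identical paralogs. Itga6, integrin alpha 6, was at 18.3 FPKM and Cd47, the signal that restrains phagocytosis, at 7.27 FPKM. Bmi1, a Polycomb factor of self-renewal, was at 5.32 FPKM and Tlr4 at 5.09 FPKM. The drug efflux pumps Abcb1b, Abcb1a and Abcg2 were at 5.24, 2.68 and 2.13 FPKM. Kit was at 0.0110 FPKM, and Aldh1a1, named after its value was seen, at 0.0216 FPKM. The library thus held Cd44, Itga6 and Ly6a RNA, with Prom1, Epcam, Kit and Thy1 each under 0.1 FPKM. Whether the same cells carried Cd44, Itga6 and Ly6a cannot be told from a library of many cells.

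Pluripotency and germ line genes were mostly low, with 2 of 22 present. Klf4, which many differentiated cells also use, was at 8.11 FPKM, and Sox2 was at 3.20 FPKM with a locus shared with other rows. Nanog was at 0.0277 FPKM and Pou5f1 at 0.0211 FPKM. Of 25 oncofetal and imprinted genes 4 were present, led by Igf2bp2, an mRNA-binding protein of embryonic tissue, at 8.64 FPKM. Igf2r was at 5.40 FPKM with a shared locus, Impact at 2.97 FPKM and Dlk1 at 1.11 FPKM. Hmga1 and Hmga2, chromatin proteins of embryonic and tumour cells, were at 42 and 11.7 FPKM, both with shared loci, so the levels of both are uncertain.

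The single highest coding row was the predicted gene Gm20594 at 48087 FPKM. Of the 30 highest, 24 were histone genes, with Hist1h4n at 3488 FPKM, Hist1h4k at 2795 FPKM and Hist1h4b at 2755 FPKM at their head. All histone genes together held 27.1% of coding FPKM in 79 rows, and 63 of 66 genes of the histone clusters were present. The mRNAs of these genes end in a stem-loop without a poly(A) tail, and the labels' protocol names ribosomal RNA depletion and no poly(A) selection; the part of this step in their levels was not tested. Ribosomal protein genes held 9.51% in 97 rows, and 76 of 80 cytosolic ones were present. Gm20594 held 26.0%, and its transcript is 88.5% identical over 435 bases to mitochondrial 16S ribosomal RNA (mt-Rnr2). Over all coding rows the 30 highest held 49.7% of coding FPKM, and 32.6% without Gm20594. These are shares of FPKM and favour short transcripts. A further 612 predicted rows held 1.59%, and all remaining coding rows held 35.8%.

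**Figure D3:**
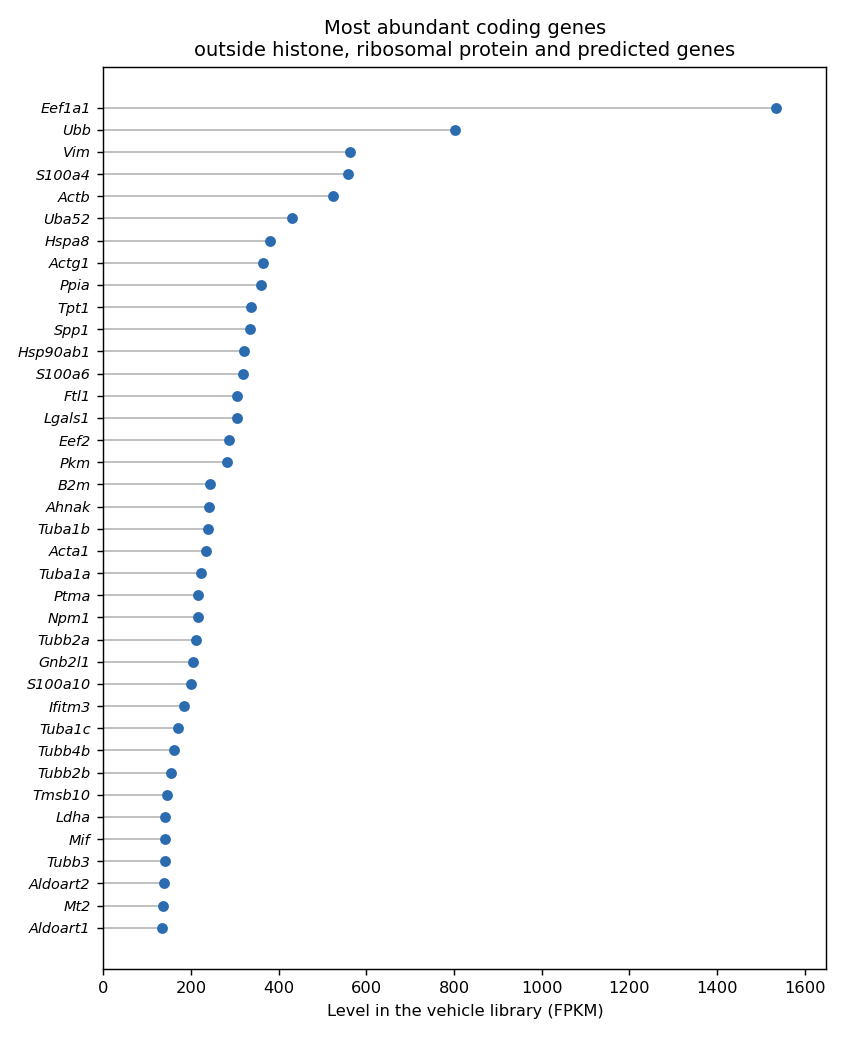
Level (FPKM, horizontal axis from 0; 1 point a gene) of the most abundant coding genes reported here for the vehicle library, outside histone, ribosomal protein and predicted genes. Vim (562 FPKM) and S100a4 (557 FPKM) stand above Actb (523 FPKM), and Spp1 (336 FPKM) also stands among the translation, chaperone and cytoskeletal genes.

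Outside these groups the highest genes belonged to translation, protein turnover and the cytoskeleton. Eef1a1, the elongation factor that brings tRNA to the ribosome, was at 1534 FPKM. Ubb, a ubiquitin gene, was at 802 FPKM with a shared locus. Vim and S100a4 followed, ahead of Actb, cytoplasmic actin, at 523 FPKM. Spp1 stood between the chaperones Hspa8 (380 FPKM) and Hsp90ab1 (322 FPKM). Other S100 proteins were high as well: S100a6 was at 318 FPKM, S100a10 at 199 FPKM and S100a11 at 104 FPKM, and 7 of 13 S100 genes were present. S100a8 and S100a9, the S100 proteins of neutrophils, were at 0.0477 and 0.0772 FPKM. Lgals1, galectin-1, was at 304 FPKM and Lgals3 at 39.6 FPKM. The membrane-binding annexins were present in 9 of 12 cases, led by Anxa2 at 91.4 FPKM with a shared locus and Anxa5 at 68.5 FPKM. Of the metal-binding metallothioneins, Mt2 was at 137 FPKM and Mt1 at 86.3 FPKM.

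Enzyme forms gave a further view of lineage. For 11 steps, 1 form of an enzyme, transporter or connexin was taken as the liver form. Whether each is limited to liver was not tested. The highest partner form was above the liver form in 9, a comparison that takes the maximum where a step has several partners. Pkm, the pyruvate kinase of dividing and non-liver cells, was at 283 FPKM and Pklr, the liver and red cell form, at 10.2 FPKM. Slc2a1, the glucose transporter of most cells, was at 11.6 FPKM and Slc2a2, that of hepatocytes, at 0.00370 FPKM. Mat2a was at 33.8 FPKM and Mat1a, the methionine adenosyltransferase of adult liver, at 0.496 FPKM. Pck2, the mitochondrial PEP carboxykinase, was at 16.0 FPKM and Pck1 at 0.125 FPKM.

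Both exceptions had the liver form higher. Cpt1a, which carries fatty acids into mitochondria, was at 3.06 FPKM and Cpt1b at 0.0669 FPKM. For arginase both forms were low, with Arg1 at 0.0396 FPKM and Arg2 at 0.00708 FPKM. Pfkl, the liver phosphofructokinase, was nearer to its partners than other liver forms, at 6.92 FPKM beside Pfkp at 20.7 FPKM and Pfkm at 4.31 FPKM. Fabp1, the liver fatty acid binding protein, was listed at 0 and Fabp5 was at 2.07 FPKM.

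**Figure D4:**
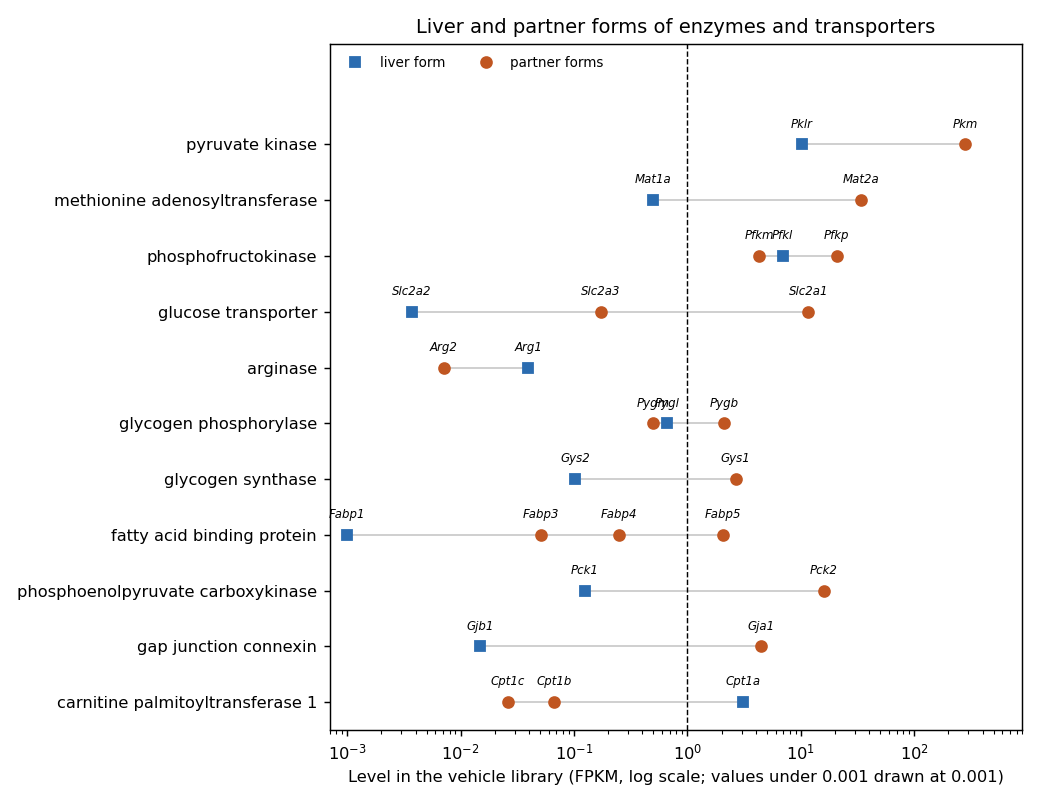
Levels (FPKM, log scale) of the liver form (squares) and partner forms (circles) of 11 enzymes, transporters and connexins in the vehicle library, with 1 FPKM as a dashed line. The highest partner stands to the right of the liver form in 9 of 11 steps, and arginase and carnitine palmitoyltransferase 1 are the exceptions.

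Of 58 receptor tyrosine kinases, which bind growth factors, 21 were present (36.2%), a share near the 40.3% of all coding genes. Axl, the receptor for Gas6, was highest at 46.6 FPKM, and Epha2, an ephrin receptor, followed at 28.6 FPKM. Ddr2, a receptor for fibrillar collagen, was at 11.2 FPKM with a shared locus, Ephb4 at 7.68 FPKM, Met, the hepatocyte growth factor receptor, at 7.21 FPKM and Ryk, a Wnt receptor, at 6.99 FPKM. Egfr, the receptor for the EGF in the medium, was at 0.298 FPKM, below the level counted as present. Its ligands were nonetheless transcribed: Areg, amphiregulin, was at 9.35 FPKM and Hbegf at 8.95 FPKM. Of 52 ligands of receptor tyrosine kinases, 15 were present, led by Csf1, the macrophage growth factor, at 14.3 FPKM. Vegfa, which acts on endothelium, was at 9.72 FPKM, Pdgfa at 9.51 FPKM and Kitl at 4.68 FPKM. Hgf, the ligand of Met, was at 0.00364 FPKM, named after its value was seen. A receptor without its own ligand (Met) and ligands with a low receptor (Areg and Hbegf beside Egfr) thus stood in the same library.

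Receptors and ligands of the TGF-beta, Wnt, Notch and Hedgehog pathways were present in part. Of 16 TGF-beta family receptors 6 were present (37.5%, near the 40.3% of all coding genes). Bmpr1a was at 6.40 FPKM, the co-receptor Tgfbr3 at 5.40 FPKM and Bmpr2 at 4.83 FPKM. Tgfbr2 was at 4.37 FPKM, Tgfbr1 at 1.66 FPKM and Acvr1 at 1.29 FPKM. Among ligands and antagonists 10 of 39 were present. Ltbp1, which holds latent TGF-beta in the matrix, was at 18.5 FPKM, Bmp1, a procollagen protease despite its name, at 7.37 FPKM and Tgfb1 at 2.30 FPKM. A list of 27 Wnt, Notch and Hedgehog pathway genes, mostly receptors but with the Notch ligands of the Dll and Jag groups, had 7 present, led by Smo, the Hedgehog signal transducer, at 6.71 FPKM, Notch2 at 4.21 FPKM and Fzd7, a Wnt receptor, at 3.79 FPKM. Of 19 Wnt ligands 2 were present, Wnt10a at 16.9 FPKM and Wnt10b at 1.15 FPKM. Wnt10a thus stood more than 10 FPKM above any other Wnt. The nuclear partners of beta-catenin, the TCF and LEF factors, had 0 of 4 members present, with Tcf7 highest at 0.546 FPKM.

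Of 41 cytokine and innate immune receptors 18 were present (43.9%), a share near the 40.3% of all coding genes. Tnfrsf12a, the TWEAK receptor, was at 34.3 FPKM with a shared locus. Ghr, the growth hormone receptor, was at 5.66 FPKM, Il6st, the shared signalling chain of the interleukin 6 family, at 5.37 FPKM and Ltbr, the lymphotoxin receptor, at 4.95 FPKM. The cytokines themselves were few: 2 of 34 interleukin genes were present (Il34 at 2.62 FPKM and Il7 at 1.27 FPKM), 1 of 23 CC chemokines (Ccl2, which attracts monocytes, at 7.81 FPKM) and 1 of 11 CXC chemokines (Cxcl10 at 2.60 FPKM with a shared locus).

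Nuclear receptors, which read hormones and vitamins, had 15 of 49 members present and none at 10 FPKM. Rarg, a retinoic acid receptor, was highest at 8.76 FPKM, with Rara at 3.05 FPKM and Rarb at 0.747 FPKM. The partner receptors Rxrb and Rxra were at 4.14 and 2.18 FPKM. Nr3c1, the glucocorticoid receptor that binds the dexamethasone in the medium, was at 3.66 FPKM. Nr1d2, a clock repressor, was at 3.21 FPKM and Ppard, with a shared locus, at 3.11 FPKM. The liver receptors Nr1h4 (0.0221 FPKM), for bile acids, and Nr1i2 (0.0152 FPKM), for xenobiotics, were near the smallest step, named after their values were seen. For the compounds used elsewhere in the study, 3 of 14 retinoid handling genes were present: Crabp1, a cytosolic retinoic acid binding protein, at 85.4 FPKM, Crabp2 at 1.35 FPKM and Rdh10, a retinol dehydrogenase, at 1.19 FPKM. Of the 11 zinc-dependent histone deacetylases, the targets of SAHA, 7 were present, with Hdac2 at 8.07 FPKM, Hdac3 at 4.81 FPKM and Hdac5 at 4.69 FPKM.

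**Figure D5:**
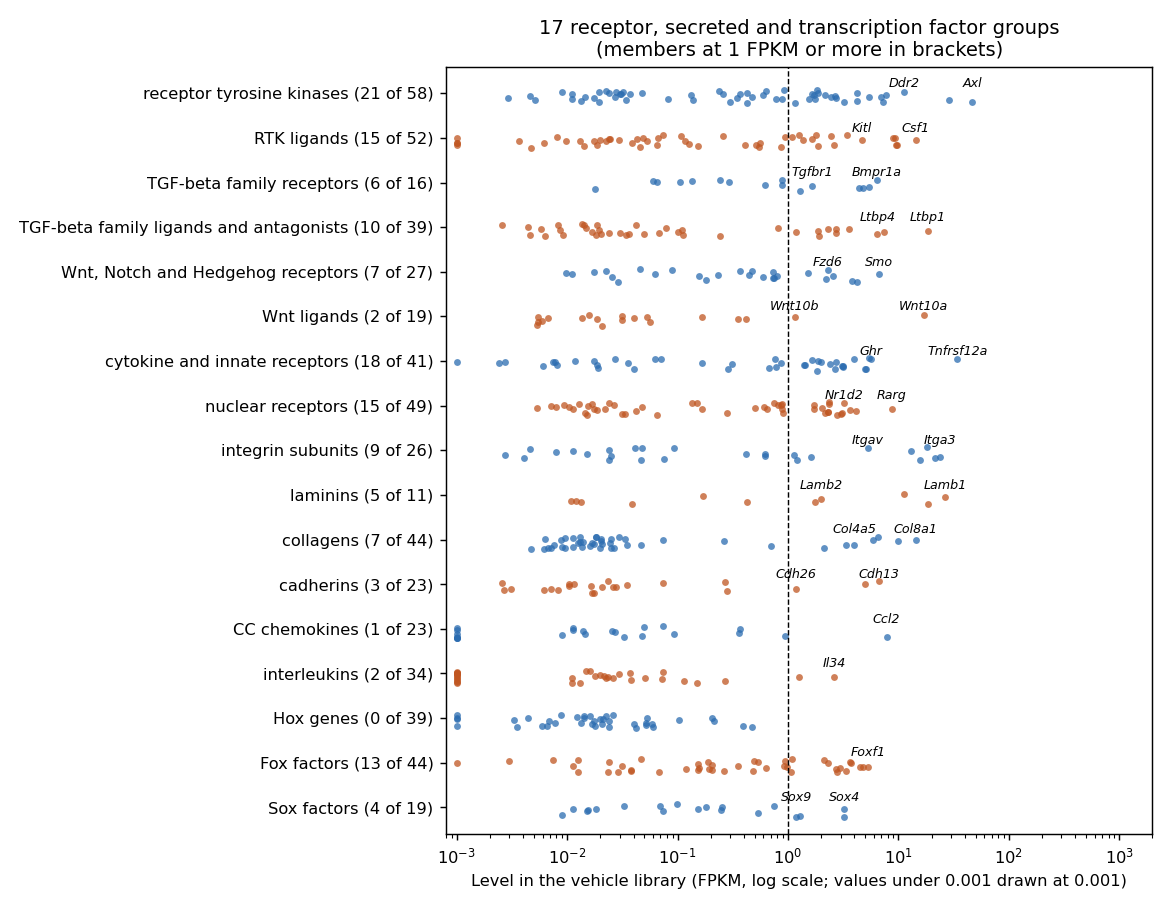
Level of every member (FPKM, log scale; 1 point a gene) of 17 receptor, secreted and transcription factor groups in the vehicle library (RTK, receptor tyrosine kinase), with the number at 1 FPKM or more (dashed line) in brackets. Axl at 46.6 FPKM leads the receptor tyrosine kinases, Wnt10a at 16.9 FPKM stands apart from the other Wnt genes, and no Hox gene lies to the right of the line.

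Of 44 collagen genes, which form the matrix, 7 were present. Col8a1, a short-chain network collagen, was highest at 14.3 FPKM and Col18a1, a basement membrane collagen, second at 9.82 FPKM. The basement membrane chains Col4a2, Col4a1 and Col4a5 were at 6.49, 5.92 and 3.96 FPKM. Col5a1, a fibrillar collagen, was at 2.11 FPKM. Of 11 laminin chains 5 were present (45.5%, near the 40.3% of all coding genes). Lamb1 was at 26.6 FPKM, Lamc1 at 18.6 FPKM and Lama5 at 11.3 FPKM. Among 26 integrin subunits 9 were present (34.6%, also near that share). Itga3 and Itga6, both alpha chains of laminin receptors, were at 24.0 and 18.3 FPKM, and their partner Itgb1 was at 15.8 FPKM. Itgb7, a subunit best known from lymphocytes, was at 21.3 FPKM, while its partner chain Itga4, named after its value was seen, was at 0.0251 FPKM.

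Proteases were few. Of 23 matrix metalloproteases 3 were present: Mmp14, the membrane-bound collagenase, at 15.2 FPKM, Mmp10 at 2.74 FPKM and Mmp11 at 2.0 FPKM. Their inhibitors Timp1 and Timp2 were at 29.4 and 28.7 FPKM, both with shared loci, and the other 2 TIMP genes were under 0.1 FPKM. Of 7 insulin-like growth factor binding proteins 3 were present, with Igfbp4 at 56.1 FPKM, Igfbp6 at 11.3 FPKM and Igfbp7 at 2.25 FPKM. Of 61 serpins 7 were present, and 5 of these were paralogs of the Serpinb6 group.

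Positional and lineage factors were largely absent. Hox genes, which record position along the body axis, had 0 of 39 present, with Hoxa5 highest at 0.475 FPKM. Pax, Nkx, LIM homeobox and T-box factors had 0 of 9, 0 of 13, 0 of 12 and 0 of 13 present, the highest being Pax9 at 0.778 FPKM, Nkx2-4 at 0.101 FPKM, Isl1 at 0.873 FPKM and Tbx15 at 0.934 FPKM. Dlx, Msx and Pitx factors had 0 of 12. Against this stood the Iroquois genes, with 4 of 6 present: Irx2 at 4.36 FPKM, Irx5 at 2.30 FPKM, Irx1 at 1.10 FPKM and Irx3 at 1.01 FPKM. Prrx1 and Prrx2, homeobox factors of mesenchyme, were at 8.97 and 7.99 FPKM. Foxf1, a factor of mesenchyme around the gut and liver, was the highest of 44 Fox genes at 5.33 FPKM, followed by Foxc1 at 4.83 FPKM and Foxk2 at 4.53 FPKM, and 13 were present. Gata6 was at 2.91 FPKM and Gata2 at 1.04 FPKM, and 4 of 19 Sox genes were present, none above 3.24 FPKM. The other liver factors of the hepatocyte list, Foxa2 among them, were all under 1 FPKM, Cebpa apart.

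Factors that respond to growth and stress signals were more often present than coding genes as a whole (40.3%). The families counted here ran from 55.6% (Myc network) to 88.2% (ATF, CEBP and CREB). Atf4, which drives the amino acid response, was at 103 FPKM and its target Ddit3 at 25.4 FPKM with a shared locus, and 15 of 17 ATF, CEBP and CREB factors were present. Myc was at 44.7 FPKM, and 5 of 9 genes of the Myc network were present (3 at 2 FPKM or more). Of 17 Klf factors 11 were present, led by Klf6 at 19.2 FPKM. Of 7 AP-1 genes 5 were present, led by Fosl1 at 16.0 FPKM with a shared locus and Junb at 11 FPKM, while Fos was at 0.149 FPKM, named after its value was seen. Of 25 ETS factors 15 were present, with Elk3 at 8.51 FPKM, Etv4 at 8.29 FPKM and Ets1 at 7.91 FPKM. Irf7, an interferon regulatory factor, was at 11.3 FPKM. Of the TEAD factors, which act with Yap1 (4.2 FPKM), 3 of 4 were present, led by Tead2 at 5.08 FPKM.

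The culture carried the RNA of dividing cells. Of 30 cell division genes 27 were present (90%, beside 40.3% of all coding genes). They were led by Pcna, the polymerase clamp, at 29.0 FPKM, Mki67 at 27.2 FPKM, the helicase subunit Mcm6 at 26.4 FPKM and Top2a at 24.2 FPKM. Of 16 G1 cyclins, their kinases and inhibitors, 13 were present (8 at 2 FPKM or more, and 8 at 1 FPKM or more without rows sharing a locus), with Cdk4 at 34.9 FPKM and Ccnd1, cyclin D1, at 37.0 FPKM with a shared locus. Cdkn2a, which encodes the inhibitors p16 and p19Arf, was listed at 0. Cdkn1b was at 6.29 FPKM, Cdk6 at 5.59 FPKM and Cdkn1a, p21, at 3.35 FPKM. Trp53 was at 12.5 FPKM, and 31 of 35 liver cancer driver and suppressor genes were present (88.6%). Other inhibitors of cyclin-dependent kinases, Cdkn2d and Cdkn2c, were at 2.02 and 1.71 FPKM, named after their values were seen.

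CpG content of promoters varied with the level of the gene. It was counted as the letters CG in the 250 bases before the start of RefSeq genes (build GRCm38.p6, genes with 1 promoter, 13619 in all). RefSeq and GENCODE starts can differ, so the Vim window lies inside the GENCODE gene span given above and the Krt18 window runs past its start. The median was 1 CpG for genes listed at 0, 4 for those above 0 but under 0.1 FPKM, 14 from 0.1 to under 1 FPKM and 17 from 1 to under 10 FPKM. It was 17 again from 10 to under 100 FPKM, 13 from 100 to under 1000 FPKM and 9 at 1000 FPKM or more, the last being 19 genes, nearly all histones. The letters TATAAA, searched on both strands, were in 29.3% of promoters of genes listed at 0 and in 5.54% from 1 to under 10 FPKM. They were in 24.8% from 100 to under 1000 FPKM, in 42.1% at 1000 FPKM or more and in 12.9% overall. Among 59 histone cluster genes the median was 9 CpGs, and 49.2% held TATAAA. Of the 66 histone cluster genes in the library, 54 reached 100 FPKM. The class from 100 to under 1000 FPKM was not counted without them, so a change with level apart from histones was not tested there. The 4 promoters here, with CG in capitals, show a range of CpG content among genes of very different level: Vim and Krt18 for the mesenchymal filament and the epithelial keratin, S100a4 for an abundant gene with few CpGs, and Alb for a hepatocyte gene near the smallest step.
Vim promoter, GRCm38.p6 chr2:13574061-13574310, plus strand: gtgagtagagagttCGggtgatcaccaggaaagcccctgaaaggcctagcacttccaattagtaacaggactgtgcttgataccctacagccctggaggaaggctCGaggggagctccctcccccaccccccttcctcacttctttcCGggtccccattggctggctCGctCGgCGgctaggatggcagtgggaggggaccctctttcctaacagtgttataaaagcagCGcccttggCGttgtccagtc
Krt18 promoter, GRCm38.p6 chr15:102027966-102028215, plus strand: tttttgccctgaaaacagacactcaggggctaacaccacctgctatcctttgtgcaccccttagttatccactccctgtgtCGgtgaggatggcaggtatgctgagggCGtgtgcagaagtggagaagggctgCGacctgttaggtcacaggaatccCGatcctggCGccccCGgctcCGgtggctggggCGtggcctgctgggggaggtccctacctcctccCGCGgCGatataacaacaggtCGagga
S100a4 promoter, GRCm38.p6 chr3:90603520-90603769, plus strand: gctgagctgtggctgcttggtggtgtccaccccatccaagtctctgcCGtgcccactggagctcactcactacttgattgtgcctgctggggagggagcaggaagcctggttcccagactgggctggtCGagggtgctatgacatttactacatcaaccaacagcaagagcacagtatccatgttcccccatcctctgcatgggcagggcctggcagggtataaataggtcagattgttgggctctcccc
Alb promoter, GRCm38.p6 chr5:90460620-90460869, plus strand: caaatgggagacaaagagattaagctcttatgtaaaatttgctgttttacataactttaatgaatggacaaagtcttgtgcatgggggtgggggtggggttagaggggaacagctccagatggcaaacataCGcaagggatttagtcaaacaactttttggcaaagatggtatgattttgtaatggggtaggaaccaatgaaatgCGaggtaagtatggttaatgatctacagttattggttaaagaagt
Vim had 8 CpGs and TATAAA, Krt18 had 12 CpGs, S100a4 had 2 CpGs and TATAAA, and Alb had 2 CpGs. S100a4 at 557 FPKM and Alb at 0.0108 FPKM thus had the same number of CpGs in this window.

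Some rows named as miRNAs matched coding genes in sequence. Of 27 miRNA rows at 1 FPKM or more with a RefSeq hairpin, 8 had a hairpin matching another annotated transcript at 90% identity or more over at least 90% of its length, and for 5 that was a coding gene at 10 FPKM or more. Among these 5, Mir1982, named after its value was seen, matched Oaz1 at 100% over 74 bases and shares its locus with the Oaz1 row. That match can thus be the overlapping gene and not a second locus. Of 505 miRNA rows under 1 FPKM, 108 had a hairpin match at the same limits, and for 8 it was a coding gene at 10 FPKM or more. The highest miRNA row was Mir703 at 10433 FPKM, and its hairpin was 98.2% identical over 109 bases to Eef1a1. Mir692-1, at 474 FPKM, matched Ftl1, a ferritin gene at 306 FPKM, at 94.6% over 111 bases, and Mir682, at 250 FPKM, matched Rpl37a, a ribosomal protein gene at 254 FPKM, at 99% over 96 bases. The mature sequences of these 3 rows, from RefSeq, are shown because each was found whole in the transcripts of its matching gene, with the seed (bases 2 to 8) in capitals.
mmu-miR-703: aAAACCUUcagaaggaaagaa
mmu-miR-682: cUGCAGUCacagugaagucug
mmu-miR-692: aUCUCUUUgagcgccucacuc
Among rows without such a match the highest was Mir471 at 10.5 FPKM, named after its value was seen. Mir199a-1 (10.0 FPKM), Mir24-2 (7.31 FPKM), Mir343 (6.67 FPKM) and Mir453 (6.55 FPKM) followed, each with a locus shared with other rows. Mir23a was at 6.18 FPKM and Mir210 at 5.35 FPKM, both without a shared locus. Of the 27 miRNA rows at 1 FPKM or more, 17 share a locus, so their levels may include signal of the overlapping rows. None of the 3 printed sequences shares a seed with another, and whether these 3 rows hold miRNA precursors or fragments of the matching mRNAs was not tested.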

How the data were processed

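The values deposited by the authors are FPKM per gene symbol, per the file headers, and the vehicle column alone was used. The submitters' processing notes name Trimmomatic 0.32, Cuffdiff and mm10. Aligner, strand setting, annotation and Cuffdiff release were not given in the sources used here. Of 23359 rows, 23238 received an RNA class from RefSeq (GRCm38.p6) or GENCODE M21 by symbol, and 27 symbols turned into dates were restored. Coordinates are GENCODE M21 on mm10. A shared locus means overlap with another row in the table.

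Genes were described by level class and by 29 lists and 63 families, of which 27 families were added after values were seen. Members, lists and the naming rule were chosen with earlier results of these data known. Named genes are the 30 highest coding genes, up to 6 leading members of each list or family, every present member where 3 or fewer reached 1 FPKM, all enzyme forms, and a fixed set of markers; others are said to have been named after their values were seen. The acetyl-CoA carboxylase and cytochrome c oxidase 7a pairs were dropped from the enzyme forms after their values were seen, because Acacb and Cox7a1 are not liver-specific forms; in both the partner form was the higher. The defensin pattern was narrowed after values were seen, to leave out unrelated genes. Depth came from the smallest step of FPKM times length in 848 genes with 1 transcript of 1000 to 4000 bases. Tested on simulated data for 3477 genes, a true 100 fragments came back as 91.6 to 92.1. Hairpins were aligned with BLAST+ 2.17.0 (expect limit 1e-05). Calculations used Python 3.11.15, pandas 2.3.3 and numpy 2.4.6. A value listed at 0 can be a failed estimate. Some genes, and the enzyme forms that pair with them, are not reported here.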

Additional observations from a re-analysis of the deposited data

How the results depend on the processing

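The level counted as present, overlapping rows and composition were varied. The 8206 present coding genes ranged from 5935 at 2 FPKM to 10862 at 1 TPM over coding rows. Their share, 40.3%, was 44.9% without rows listed at 0 and 39.2% without rows sharing a locus. The 30 highest coding genes held 49.7% of coding FPKM, 56.0% without rows sharing a locus, 50.2% with rows under 1 FPKM left out of the total, and 32.6% without Gm20594, an alternative added after seeing the data. Present hepatocyte genes numbered 1, but 0 at 2 FPKM and 3 at 1 TPM. Present epithelial genes numbered 11, but 7 at 2 FPKM, 13 at 0.5 FPKM and 16 at 1 TPM. Mesenchymal genes numbered 15 to 21 under these settings. Among the 89 other lists and families, counts moved by more than 1.5 times in 17 at 0.5 FPKM, 20 at 2 FPKM and 7 without shared loci, also added after seeing the data. Fragments per FPKM and kilobase were 96.3 for transcripts of 1000 to 2000 bases and 106 for 2000 to 4000. No paired analysis was possible because each group has 1 library. Depth limits values near 0.01 FPKM, which rest on few fragments.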

Other observations

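Genes flanking Cdkn2a on chromosome 4, named after their values were seen, had uneven levels. Klhl9 was at 9.77 FPKM, the noncoding row Gm12603 at 7.11 FPKM and Mtap, which salvages methionine, at 7.46 FPKM. Cdkn2a was listed at 0 and Cdkn2b was at 0.0382 FPKM. On the far side Dmrta1 was at 0.0182 FPKM and Elavl2 at 0.0257 FPKM. No DNA copy number was measured.

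Y-linked genes were present in part, at 7 of 35 coding genes of the Y chromosome (20%). Among those listed were Eif2s3y at 8.49 FPKM, Ddx3y at 3.83 FPKM, Usp9y at 3.61 FPKM, Zfy2 at 1.93 FPKM and Zfy1 at 1.89 FPKM. Kdm5d (0.653 FPKM), Uty (0.457 FPKM) and Sry (listed at 0) of the same list were not present. Uty and Sry were named after their values were seen. Xist, which silences an X chromosome in female cells, was at 0.00481 FPKM. On the X chromosome 238 of 863 coding genes (27.6%) were present, and among autosomes the share ran from 29.95% on chromosome 7 to 50.0% on chromosome 13.

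Long noncoding rows were scarce, with 64 of 1707 present. Malat1, a nuclear RNA, was at 36.0 FPKM, and Pvt1, a neighbour of Myc, was at 12.8 FPKM with a shared locus. Small RNA rows held 27.3% of all FPKM, and 78.8% of that came from 5 RNase P and RNase MRP rows. Rpph1 (11332 FPKM) and Rmrp (4447 FPKM) are the RNA parts of these enzymes, which cut tRNA and ribosomal RNA precursors. Rprl3 (15578 FPKM), Rprl1 (13758 FPKM) and Rprl2 (12321 FPKM) are RNase P RNA-like rows. How reads were split between these rows was not tested.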
